A study of Mus musculus with 4 samples.

Results

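G protein-coupled receptors (GPCRs) for purines, lysophospholipids, amines and vasoactive peptides, together with receptors without a settled ligand, were compared between cancer-associated fibroblasts (CAFs) from tumours labelled resistant and CAFs from tumours labelled normal. CAFs are the fibroblasts found inside a tumour. The genes were taken by symbol: receptor names such as Adora, P2ry, S1pr, Lpar, Adra, Htr, Ednra and F2r, the numbered Gpr and Gprc5 genes, and the partner genes Ramp and Agtrap. Of 174 such symbols among the 23377 genes counted, 55 had at least 20 reads over the 4 libraries and are described here. Another 119 had fewer reads, and 43 of those had none.

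Messenger RNA of mouse cells was sequenced in 2 libraries of resistant tumour CAFs, titled RES4, and 2 libraries of normal tumour CAFs, titled WTA. The series deals with lactate from cancer cells and with drugs that target MET and EGFR. The labels state no strain, age, treatment, tumour line or sort for either group, so all that separates the groups in them is the phenotype of the tumour. Their protocols describe both a TruSeq and a SMART-seq2 preparation without assigning libraries to them. If the preparation differed between the groups, its effect cannot be told apart from that of the phenotype. No label ties a replicate to its own animal or culture, so the p-values here measure the spread between libraries, which may be technical, and each group may stem from a single tumour or culture.

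GPCRs cross the membrane with a 7-helix core and pass a signal from an outside ligand to heterotrimeric G proteins, whose alpha subunits raise or lower cyclic AMP or release calcium. RGS proteins switch the alpha subunits off, and receptor kinases with arrestins uncouple the receptor. In fibroblasts, thrombin, endothelin, lysophosphatidate and sphingosine 1-phosphate receptors are known for driving contraction, migration and growth. Adhesion GPCRs carry long outer domains that bind matrix or neighbouring cells, and some of them act in glia.

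Library totals were 2845237 and 2785936 reads for resistant and 3948066 and 5558541 reads for normal tumour CAFs. Levels are in CPM, read counts brought to one library size with TMM (trimmed mean of M values) scaling, and differences are log2 fold changes ± standard error (SE) of resistant minus normal tumour CAFs from edgeR's quasi-likelihood test. A gene is called higher, or is said to have risen, where its Benjamini-Hochberg adjusted p over all tested genes is under 0.05 and its log2 fold change is positive, and called lower, or is said to have fallen, where it is negative. The cell type markers of the libraries differed. Of 9 tested fibroblast markers 9 were called higher, and the list of 10 summed to 6930 and 6611 CPM in resistant against 2823 and 2376 CPM in normal tumour CAFs. The sums hide uneven differences. Col1a1 had 1684 and 1698 CPM in resistant against 1177 and 962 CPM in normal tumour CAFs, and Thy1 288 and 213 against 72.6 and 65.1 CPM. Pdgfra had 1116 and 878 CPM against 29.6 and 7.38 CPM. Dcn had 243 and 346 reads in resistant against 3 and 1 reads in normal tumour CAFs, and Dpt 472 and 670 against 13 and 3. All 6 tested markers of Schwann cells and neural crest were called lower, and that list of 10 summed to 10.2 and 9.88 CPM in resistant against 1246 and 1104 CPM in normal tumour CAFs. Within it, Sox10 had 2 and 1 reads in resistant against 745 and 821 reads in normal tumour CAFs. Epithelial markers summed to 45.5 and 63.7 CPM in resistant against 6.67 and 6.71 CPM in normal tumour CAFs, carried by Krt19, while Epcam, Cdh1 and Cldn7 had no read in any library. Leukocyte markers summed to 12.5 and 21.2 CPM against 7.90 and 8.39 CPM with Ptprc at 0. Endothelial markers summed to 1.46 to 2.66 CPM over the 4 libraries. Smooth muscle and pericyte markers summed to 429 and 544 CPM against 919.9 and 798 CPM with Kcnj8 at 0; of its 7 tested genes Cspg4 and Mcam fell, and Myh11 and Rgs5 rose. Melanocyte markers summed to 41.0 and 27.4 CPM against 29.9 and 35.1 CPM with Dct and Mlana at 0. The part of these marker differences in the receptor results was not tested. In bulk RNA, fewer cells of a type and less RNA per cell cannot be told apart.

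Promoters of 4 receptors are shown to set members called in opposite directions side by side: Adora2b and Calcrl rose in resistant tumour CAFs, and P2ry1 and Gpr141 fell. Each window runs from 250 bases before to 50 bases after the RefSeq start site, on GRCm38.p6, which is not the mm9 build of the counts. Capitals mark the words ACGTG and GCGTG, the core that hypoxia-inducible factors bind, and ACAAAG and ACAATG, a core that SOX factors bind, on both strands.
Adora2b, chr11:62248734-62249033 (+ strand): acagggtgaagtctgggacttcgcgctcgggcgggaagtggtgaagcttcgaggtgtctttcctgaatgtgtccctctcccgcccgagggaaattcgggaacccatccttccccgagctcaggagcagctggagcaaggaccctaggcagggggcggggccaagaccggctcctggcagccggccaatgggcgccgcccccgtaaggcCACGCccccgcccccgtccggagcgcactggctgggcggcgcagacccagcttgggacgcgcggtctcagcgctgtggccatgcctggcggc
Calcrl, chr2:84425217-84425516 (- strand): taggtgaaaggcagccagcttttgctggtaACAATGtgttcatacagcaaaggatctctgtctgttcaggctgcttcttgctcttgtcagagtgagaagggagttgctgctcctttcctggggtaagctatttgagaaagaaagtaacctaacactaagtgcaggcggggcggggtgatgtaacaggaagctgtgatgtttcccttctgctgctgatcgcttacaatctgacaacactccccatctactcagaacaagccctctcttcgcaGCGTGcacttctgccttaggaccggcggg
P2ry1, chr3:61002535-61002834 (+ strand): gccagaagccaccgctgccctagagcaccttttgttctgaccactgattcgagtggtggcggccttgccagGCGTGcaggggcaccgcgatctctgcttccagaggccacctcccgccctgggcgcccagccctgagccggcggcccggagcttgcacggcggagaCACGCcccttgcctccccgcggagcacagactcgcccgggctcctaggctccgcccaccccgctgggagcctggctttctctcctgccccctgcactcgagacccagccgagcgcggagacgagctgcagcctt
Gpr141, chr13:19824208-19824507 (- strand): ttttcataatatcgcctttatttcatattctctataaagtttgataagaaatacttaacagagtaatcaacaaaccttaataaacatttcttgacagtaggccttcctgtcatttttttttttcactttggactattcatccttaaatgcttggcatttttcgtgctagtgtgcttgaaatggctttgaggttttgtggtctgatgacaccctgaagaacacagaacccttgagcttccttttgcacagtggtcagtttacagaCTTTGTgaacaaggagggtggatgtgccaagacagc
The Adora2b window held 1 hypoxia core and no SOX core. The Calcrl window held 1 of each, P2ry1 held 2 hypoxia cores, and Gpr141 held 1 SOX core. Some genes had more than 1 start site and so more than 1 window. A hypoxia core was present in 11 of 16 windows of members called higher, in 4 of 11 windows of members called lower, in 18 of 31 windows of members not called and in 43.8% of all 32851 promoter windows. A SOX core was present in 6 of 16, in 3 of 11, in 4 of 31 and in 28.6% of all windows. These matches describe letters in the window and do not show binding.

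Of the 55 members, 49 passed the filter on low counts and were tested. In resistant tumour CAFs, 15 rose and 10 fell, which is 30.6% and 20.4% of those tested, against 15.5% higher and 13.9% lower over all 12001 genes tested. In either direction the shares were 51.0% of tested members and 29.4% of all genes. A gene that passed the filter through the group where it is high had to differ, so these shares describe the members and do not test them. The counts given below for receptor classes and gene lists stand beside the same shares of all genes, and no such count was tested. The median log2 fold change of tested members was 0.50, with P2ry1 at its bound or at its fitted value, and that of all genes was -0.0036. Group ranges did not overlap for 42 of the 49, or 85.7%, against 64.7% of all genes. Of the 25 called members, 19 differed by at least 4-fold, 13 upward and 6 downward. The authors' deposited table called 9 members upregulated and 5 downregulated by its own rule, and all 14 were called in the same direction here. The other members called here, Gprc5b, Gpr137b, Gpr39 and S1pr1 among them, were not called in that table. It comes from the same 4 libraries, so the match is no independent support.

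**Figure D1:**
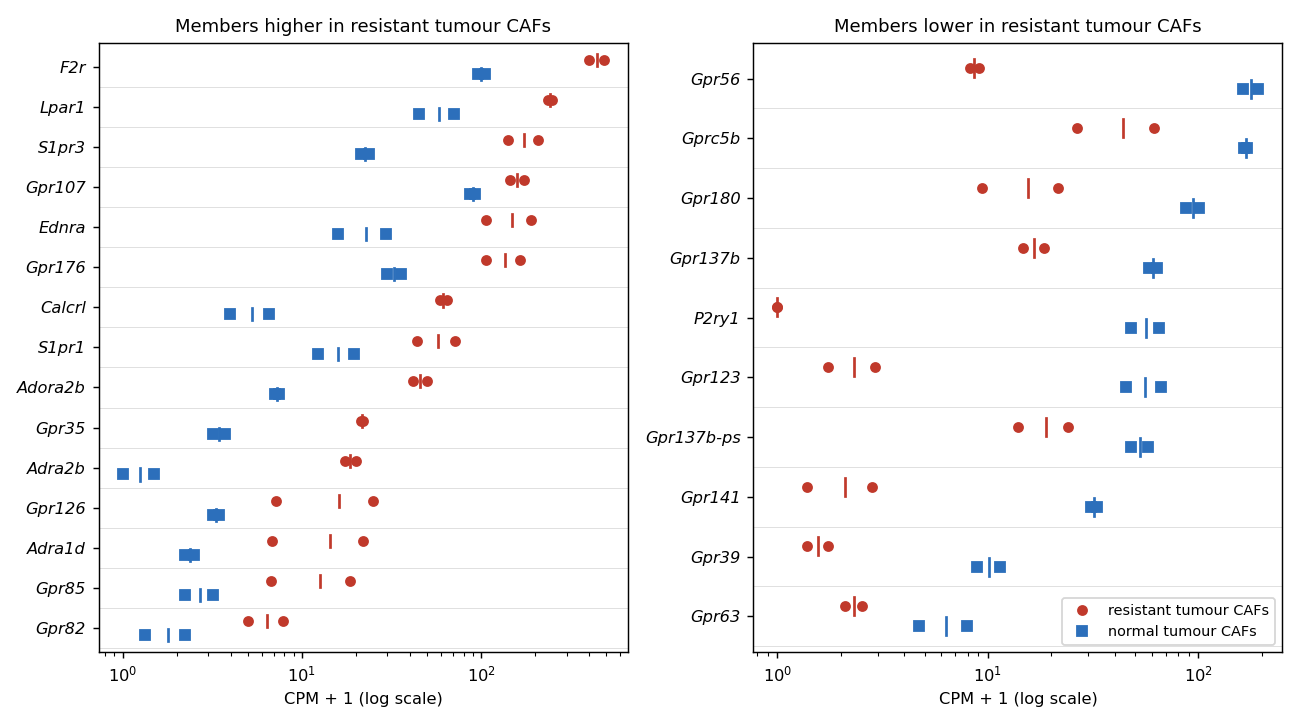
CPM + 1 on a log axis for the 25 called members, with resistant tumour CAFs (circles) above normal tumour CAFs (squares), 1 point per library and a bar at the group mean. In each row the circles and squares do not overlap; P2ry1 had no read in either resistant library.

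The purine receptors divided. P2ry1, a Gq-coupled receptor for ADP, had no read in either resistant library, against 46.9 and 64.1 CPM (190 and 382 reads) in the normal libraries. Its level in resistant tumour CAFs was therefore at least 102-fold lower, a bound computed against 3 counts over the group (edgeR adjusted p = 1.85e-05). Adora2b, the low-affinity adenosine receptor that raises cyclic AMP, stood at 40.6 and 49.02 CPM in resistant against 6.42 and 6.04 CPM in normal tumour CAFs. Both resistant libraries lay far above both normal ones, with a log2 fold change of 2.84 ± 0.43 (adjusted p = 3.58e-04). P2ry2, a receptor for ATP and UTP, had 22.0 and 9.15 CPM in resistant against 9.63 and 14.3 CPM in normal tumour CAFs. These ranges overlapped, and its log2 fold change of 0.37 ± 0.51 did not pass the test. Adora2a, the other adenosine receptor that raises cyclic AMP, was too low to test, with 0 and 3 reads in resistant against 7 and 22 reads in normal tumour CAFs. Its ratio of pooled CPM, normal over resistant, was 5.19 (exact 95% counting interval 1.61 to 26.6).

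Receptors for lysophospholipids, lipid mediators made from membrane phospholipids, took 758 and 606 CPM in sum in resistant against 272 and 281 CPM in normal tumour CAFs. Of 7 tested, 3 rose, none fell, and 4 did not pass the test. S1pr3, a sphingosine 1-phosphate receptor that couples to several G proteins, had 207 and 140.1 CPM in resistant against 20.2 and 22.6 CPM in normal tumour CAFs (log2 fold change 3.01 ± 0.35, adjusted p = 5.71e-05). S1pr1, the Gi-coupled receptor of the same family, had 70.2 and 43.2 CPM against 18.5 and 11.2 CPM (log2 fold change 1.94 ± 0.44, adjusted p = 0.00552). Neither gene's group ranges overlapped, but S1pr1 missed the threshold without normal replicate 2 (adjusted p = 0.140). S1pr2, which couples to G12 and G13, had 196 and 117 CPM in resistant against 114 and 98.1 CPM in normal tumour CAFs. Its log2 fold change was 0.56 ± 0.32 and did not pass (adjusted p = 0.214), except without resistant replicate 2 (adjusted p = 0.0233). The order of the 3 genes was not the same in the groups. Per kilobase of exon the means were 38.9 for S1pr3, 19.7 for S1pr2 and 18.6 for S1pr1 CPM per kb in resistant tumour CAFs. In normal tumour CAFs they were 4.81, 13.3 and 4.89 CPM per kb. S1pr2 was first in both normal libraries, but S1pr3 and S1pr1 changed places between them. S1pr3 and S1pr1 had 4.54 and 6.08 CPM per kb in normal replicate 1 and 5.075 and 3.69 CPM per kb in normal replicate 2.

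Lpar1, the main lysophosphatidate receptor of fibroblasts, had 235 and 248 CPM in resistant against 44.2 and 69.6 CPM in normal tumour CAFs. Its log2 fold change was 2.08 ± 0.31 (adjusted p = 3.04e-04). None of the other lysophosphatidate receptors passed the test. Lpar6 had 29.2 and 43.9 CPM in resistant against 43.0 and 47.5 CPM in normal tumour CAFs, with overlapping ranges. Lpar4 had 13.7 and 10.6 CPM against 15.6 and 26.3 CPM, and Lpar2 had 6.45 and 2.20 CPM against 16.1 and 5.20 CPM. Log2 fold changes of Lpar6, Lpar4 and Lpar2 were -0.31 ± 0.39, -0.79 ± 0.46 and -1.27 ± 0.67.

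Among amine receptors, 2 of 5 rose and none fell. Adra2b, an alpha-2 adrenergic receptor, had 43 and 52 reads in resistant against 2 and 0 reads in normal tumour CAFs. The ratio of pooled CPM, resistant over normal, was 88.5 (exact 95% counting interval 23.8 to 742), with adjusted p = 1.18e-04. Adra1d, an alpha-1 adrenergic receptor that releases calcium, had 20.9 and 5.85 CPM in resistant against 1.23 and 1.51 CPM in normal tumour CAFs (log2 fold change 3.23 ± 0.69, adjusted p = 0.00337). Resistant replicate 1 carried much of it, and without that library the log2 fold change was 2.06 and did not pass (adjusted p = 0.0675). Adra2a had 11.8 and 4.02 CPM in resistant against 12.3 and 1.68 CPM in normal tumour CAFs, so that replicates differed more than groups. The serotonin receptor gene Htr2a had 4.93 and 4.76 CPM against 1.48 and 1.68 CPM, with a log2 fold change of 1.59 ± 0.58 that narrowly missed the threshold (adjusted p = 0.0567). Htr2b had 9 and 0 reads in resistant against 12 and 20 reads in normal tumour CAFs.

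The receptors for thrombin, endothelin, adrenomedullin and bradykinin, with the partner genes Ramp3 and Agtrap, summed to 726 and 711 CPM in resistant against 165 and 163 CPM in normal tumour CAFs. Of 6 tested, 3 rose, none fell, and 3 did not pass. F2r, which encodes the thrombin receptor PAR1, had 400.1 and 483 CPM in resistant against 94.6 and 104 CPM in normal tumour CAFs (log2 fold change 2.15 ± 0.25, adjusted p = 5.71e-05). Per kilobase of exon F2r was first of the 55 members in resistant tumour CAFs, at 132 ± 17.5 CPM per kb (mean ± SD, n = 2), and rank 4 in normal tumour CAFs, at 29.8 ± 2.03 CPM per kb. Ednra, the endothelin receptor that constricts smooth muscle, had 189 and 105 CPM in resistant against 28.4 and 14.9 CPM in normal tumour CAFs (log2 fold change 2.77 ± 0.43, adjusted p = 4.08e-04). Calcrl, the shared receptor for adrenomedullin and CGRP, had 57.6 and 63.3 CPM against 2.96 and 5.54 CPM (log2 fold change 3.79 ± 0.47, adjusted p = 8.62e-05).

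Calcrl reaches the cell surface with a RAMP partner, which also sets its ligand preference. Ramp3 had 14 and 17 reads in resistant against 14 and 15 reads in normal tumour CAFs, with a log2 fold change of 0.96 ± 0.54 that did not pass. Ramp1 had 1 and 0 reads against 5 and 10, and Ramp2 had 4 and 3 reads against 2 and 2, both under the count that membership asked for. The bradykinin receptor gene Bdkrb2 had 11 and 11 reads in resistant against 9 and 9 in normal tumour CAFs. Agtrap, which encodes a partner of the angiotensin receptor and is itself no GPCR, had 69.4 and 49.02 CPM against 33.3 and 33.9 CPM, and its log2 fold change of 0.82 ± 0.38 did not pass (adjusted p = 0.130), except without resistant replicate 2 (adjusted p = 0.0341).

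**Figure D2:**
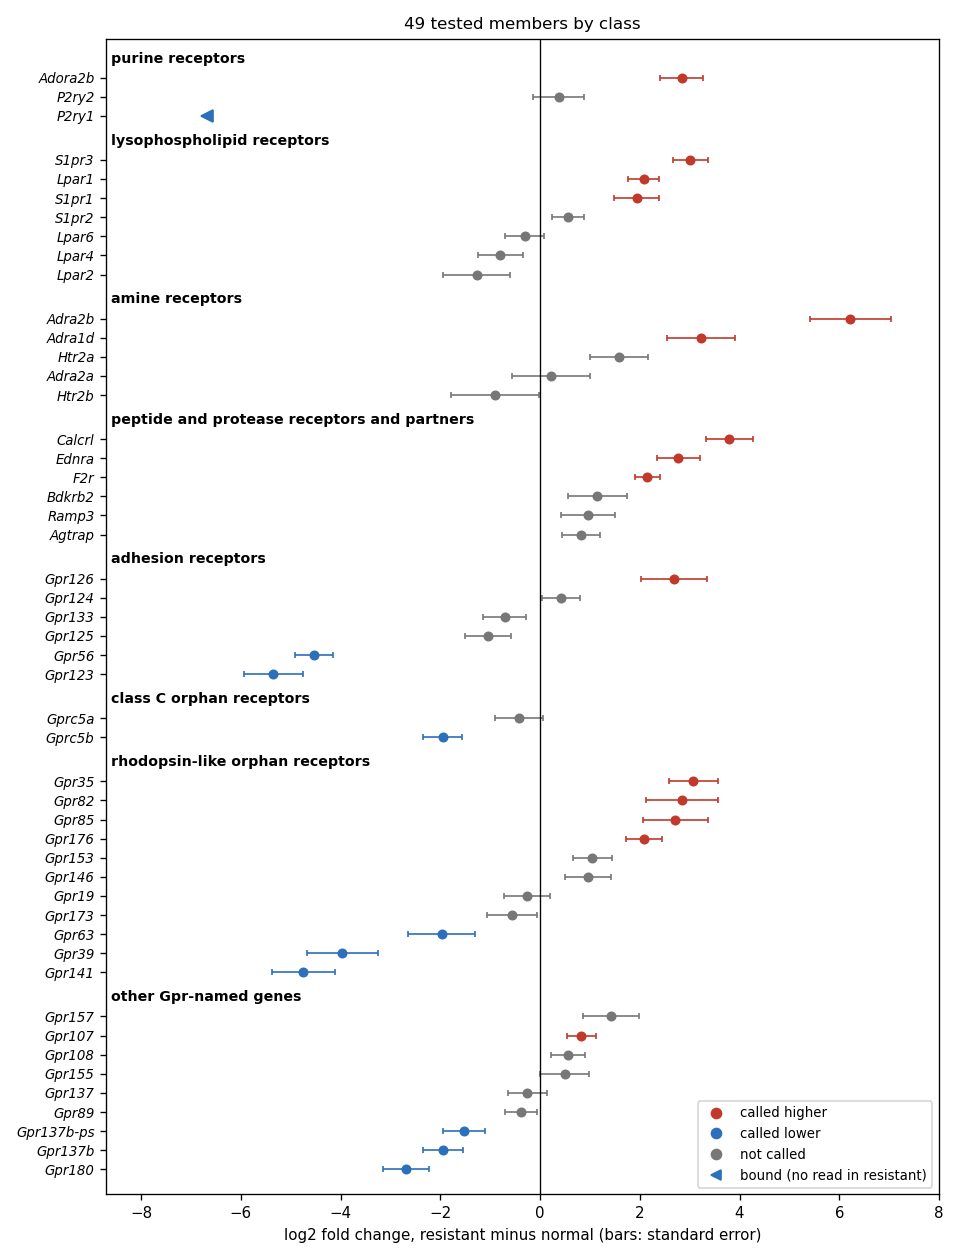
Log2 fold change of resistant minus normal tumour CAFs for the 49 tested members by class, with SE bars; red is called higher, blue called lower and grey not called. Lysophospholipid, amine and peptide receptors hold calls only on the right, while P2ry1, drawn as a triangle at its bound, and the adhesion genes Gpr56 and Gpr123 lie far left.

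Adhesion GPCRs summed to 177 and 112 CPM in resistant against 363 and 353 CPM in normal tumour CAFs, with 1 of 6 tested higher and 2 lower. Gpr56, also named Adgrg1, a receptor known to bind collagen III and to act in myelinating glia, had 7.21 and 8.05 CPM in resistant against 162 and 192 CPM in normal tumour CAFs. Its log2 fold change was -4.53 ± 0.38 (adjusted p = 8.03e-06). Gpr123, also named Adgra1, had 1.90 and 0.732 CPM against 44.2 and 65.1 CPM (log2 fold change -5.35 ± 0.59, adjusted p = 4.05e-05). Both genes had few reads in resistant libraries and clear levels in normal ones. The same held outside this class for Gpr141 and, with no read in resistant libraries, for P2ry1. Gpr126, also named Adgrg6, which Schwann cells need to myelinate, went the other way, at 23.9 and 6.22 CPM in resistant against 2.47 and 2.18 CPM in normal tumour CAFs. Its log2 fold change was 2.68 ± 0.66 (adjusted p = 0.00820), and without resistant replicate 1 it was 1.42 and did not pass (adjusted p = 0.146).

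Gpr124, also named Adgra2, known for its part in Wnt7 signalling in brain vessels, had 109 and 65.9 CPM in resistant against 80.3 and 50.5 CPM in normal tumour CAFs, with overlapping ranges. Gpr125 had 22.0 and 16.5 CPM in resistant against 53.1 and 26.7 CPM in normal tumour CAFs (log2 fold change -1.05 ± 0.45, adjusted p = 0.107). With scaling by library totals its adjusted p was 0.0480 and with the replicate block 0.0392. Gpr133 had 11.4 and 10.98 CPM against 19.8 and 16.9 CPM, and its log2 fold change of -0.71 ± 0.43 did not pass. Gpr116 had 5 and 10 reads against 5 and 0 and was not tested.

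Among the class C orphan receptors, Gprc5b, a retinoic acid-inducible gene, had 60.3 and 25.6 CPM in resistant against 169.7 and 164 CPM in normal tumour CAFs (log2 fold change -1.96 ± 0.39, adjusted p = 0.00246). Gprc5a had 6.07 and 9.15 CPM against 9.38 and 10.9 CPM and did not pass, and Gprc5c had 5 and 3 reads against 8 and 12 and was not tested.

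Of 11 tested rhodopsin-like orphan receptors, 4 rose and 3 fell. Gpr176, a Gz-coupled receptor known from the circadian clock of the brain, had 163 and 106 CPM in resistant against 34.6 and 28.7 CPM in normal tumour CAFs (log2 fold change 2.09 ± 0.36, adjusted p = 8.45e-04). Gpr35, for which kynurenic acid is a proposed ligand, had 20.5 and 20.9 CPM against 2.72 and 2.18 CPM (log2 fold change 3.07 ± 0.50, adjusted p = 5.50e-04). Gpr85 had 15 and 48 reads in resistant against 5 and 13 reads in normal tumour CAFs, and Gpr82 had 18 and 11 reads against 5 and 2. These low genes rested on few reads, and single libraries decided them. Gpr85 missed the threshold without resistant replicate 2 (adjusted p = 0.131). Gpr82 missed the threshold without resistant replicate 1 (adjusted p = 0.0962), without normal replicate 2 (adjusted p = 0.229) and with DESeq2 (adjusted p = 0.0761).

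Gpr141, an orphan receptor, had 1 and 5 reads in resistant against 129 and 179 reads in normal tumour CAFs, or 0.379 and 1.83 CPM against 31.9 and 30.0 CPM. Its log2 fold change was -4.75 ± 0.63 (adjusted p = 1.33e-04). Gpr39, a zinc-sensing receptor, had 1 and 2 reads in resistant against 32 and 62 reads in normal tumour CAFs. The ratio of pooled CPM, normal over resistant, was 16.8 (exact 95% counting interval 5.58 to 83.0), with adjusted p = 0.00115. Its exons overlap those of Lypd1 on the opposite strand, a gene with 0 and 0 reads in resistant and 6 and 1 reads in normal tumour CAFs. Gpr63 had 4 and 3 reads against 28 and 22 reads and a log2 fold change of -1.97 ± 0.67 close to the threshold (adjusted p = 0.0436). It passed in none of the fits without 1 library, nor with DESeq2 or limma-voom.

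None of the remaining orphan receptors that were tested passed. Gpr153 had 76.6 and 63.3 CPM in resistant against 42.2 and 25.8 CPM in normal tumour CAFs (log2 fold change 1.04 ± 0.39, adjusted p = 0.0625), and it passed with DESeq2, limma-voom and the replicate block (lowest adjusted p = 0.0116). Gpr146 had 18.6 and 16.8 CPM against 11.4 and 6.88 CPM, and Gpr19 had 9.10 and 16.8 CPM against 15.1 and 16.3 CPM. Gpr173 had 23 and 13 reads against 41 and 59 reads. Gpr162, with 26 and 4 reads against 3 and 3, and Gpr161, with 8 and 4 against 22 and 9, were not tested. With no low-count filter Gpr162 passed.

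Several Gpr-named genes encode membrane proteins of the Golgi or lysosome, or proteins whose role as receptors is doubtful. Of 9 tested, 1 rose and 3 fell. Gpr180 had 20.5 and 8.41 CPM in resistant against 86.7 and 99.3 CPM in normal tumour CAFs (log2 fold change -2.69 ± 0.46, adjusted p = 7.51e-04). Per kilobase of exon it was first of the 55 members in normal tumour CAFs, at 49.6 ± 4.77 CPM per kb (SD, n = 2), and at 7.71 ± 4.55 CPM per kb in resistant tumour CAFs. Gpr137b, a lysosomal membrane protein gene, had 13.7 and 17.6 CPM against 57.0 and 62.7 CPM (log2 fold change -1.94 ± 0.40, adjusted p = 0.00293). Its pseudogene Gpr137b-ps had 12.9 and 23.0 CPM against 46.9 and 56.9 CPM. The copies are alike in sequence, so how reads were divided between them is uncertain, and Gpr137b-ps missed the threshold without normal replicate 2 (adjusted p = 0.140).

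Gpr107, a Golgi protein gene, had 174 and 143 CPM in resistant against 86.2 and 92.1 CPM in normal tumour CAFs, at the edge of the threshold (log2 fold change 0.83 ± 0.29, adjusted p = 0.0483). It did not pass without either single normal library, with library totals or with no low-count filter (highest adjusted p = 0.494). Gpr108 had 89.5 and 91.1 CPM against 52.4 and 70.0 CPM, Gpr89, the Golgi pH regulator gene, had 64.9 and 75.4 CPM against 92.9 and 90.9 CPM, and Gpr137 had 22.0 and 24.9 CPM against 28.4 and 27.5 CPM. None of these 3 passed. Gpr155 and Gpr157 did not pass either, at log2 fold changes of 0.50 ± 0.49 and 1.43 ± 0.56. Gpr157 did pass with no low-count filter and with the replicate block. Gpr137c had 2 and 1 reads against 11 and 6 reads and was not tested.

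The receptors that sense protons, lactate and other metabolites were almost silent, in a series about lactate. Gpr81, the lactate receptor gene now named Hcar1, had no read in any library, which allows up to 1.14 and 1.10 CPM in the resistant and 0.741 and 0.503 CPM in the normal libraries. The acid-sensing receptor genes Gpr4 and Gpr65 also had no read, and Gpr132 had 1 and 0 reads in resistant against 0 and 4 reads in normal tumour CAFs. Of 13 genes of this list in the table, 7 had a read and only Gpr35 passed the filter. Other receptors known in fibroblasts were under the count for membership. F2rl1, the trypsin receptor PAR2, was nearest to it with 9 and 7 reads in resistant against 2 and 0 reads in normal tumour CAFs. Agtr1a, the angiotensin receptor, had 4 and 8 reads against 0 and 0, and Ednrb had 2 and 5 against 1 and 0. Just inside, Gpr116 and Gpr137c had 20 reads each over the 4 libraries.

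Genes that supply or remove the ligands were read as a list of 52, of which 28 were tested, 10 rose and 4 fell. Around Lpar1, Enpp2, which encodes autotaxin, the enzyme that makes lysophosphatidate outside the cell, had 231 and 222 CPM in resistant against 4.69 and 1.34 CPM in normal tumour CAFs (log2 fold change 6.30 ± 0.50, adjusted p = 6.41e-06). The phosphatases that break lysophosphatidate down rose as well. Ppap2b had 618 and 660 CPM against 44.7 and 34.6 CPM (4.01 ± 0.27 on the log2 scale), Ppap2c rose by 1.92 ± 0.37 and Ppap2a by 1.001 ± 0.31. Enpp1 and Enpp3, which split extracellular nucleotides, rose by 2.46 ± 0.52 and 3.07 ± 0.44. The gene Sphk1, for the kinase that makes sphingosine 1-phosphate, fell, with 35.7 and 37.0 CPM in resistant against 76.8 and 89.8 CPM in normal tumour CAFs (-1.20 ± 0.35, adjusted p = 0.0215). Sgpp1, a phosphatase for the same lipid, rose by 1.83 ± 0.52, with 181 and 87.1 CPM against 58.0 and 17.8 CPM.

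Adm, the gene of the Calcrl ligand adrenomedullin, had 143 and 236 CPM in resistant against 4.94 and 0.336 CPM in normal tumour CAFs (6.29 ± 0.72, adjusted p = 4.99e-05). The endothelin gene Edn1 had 9.10 and 14.3 CPM against 11.9 and 9.73 CPM and did not pass, although its receptor gene Ednra rose. Ace, whose enzyme makes angiotensin II and breaks down bradykinin, had 868 and 290 reads in resistant against 17 and 1 reads in normal tumour CAFs (6.79 ± 0.84). Ectoenzyme genes of the purine pathway went both ways: Entpd2 and Nt5e fell, while Enpp1 and Enpp3, above, rose. Entpd1 had 7 and 10 reads in resistant against 1 and 0 reads in normal tumour CAFs and was not tested, and Entpd5 did not pass (0.72 ± 0.34). Entpd2, which turns ATP into ADP on glial cells among others, had 1.52 and 3.29 CPM in resistant against 37.8 and 43.3 CPM in normal tumour CAFs (-4.05 ± 0.53, adjusted p = 1.25e-04). Nt5e, which makes adenosine from AMP, had 4 and 3 reads against 22 and 50 reads (-2.39 ± 0.64, adjusted p = 0.0131), while the adenosine receptor gene Adora2b rose. Nt5e missed the threshold without either resistant library and without normal replicate 2 (highest adjusted p = 0.193). Psap, the precursor of the saposins, rose by 1.003 ± 0.22, and Lpcat1 fell by 1.64 ± 0.42 on the log2 scale. Of the 4 genes of the list that fell, only Entpd2 passed whichever single library was left out. Lpcat1 missed the threshold without normal replicate 2, at a log2 fold change of -1.38. Sphk1 missed it without normal replicate 1 (-1.37) and without normal replicate 2 (-1.12). Of those that rose, Ppap2a did not pass without either normal library (adjusted p = 0.389 and 0.366), nor Ppap2c without normal replicate 1 (adjusted p = 0.104). Sgpp1 stood at 1.22 without resistant replicate 1 and at 1.16 without normal replicate 2, past the test in neither, and at 2.83 without normal replicate 1.

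**Figure D3:**
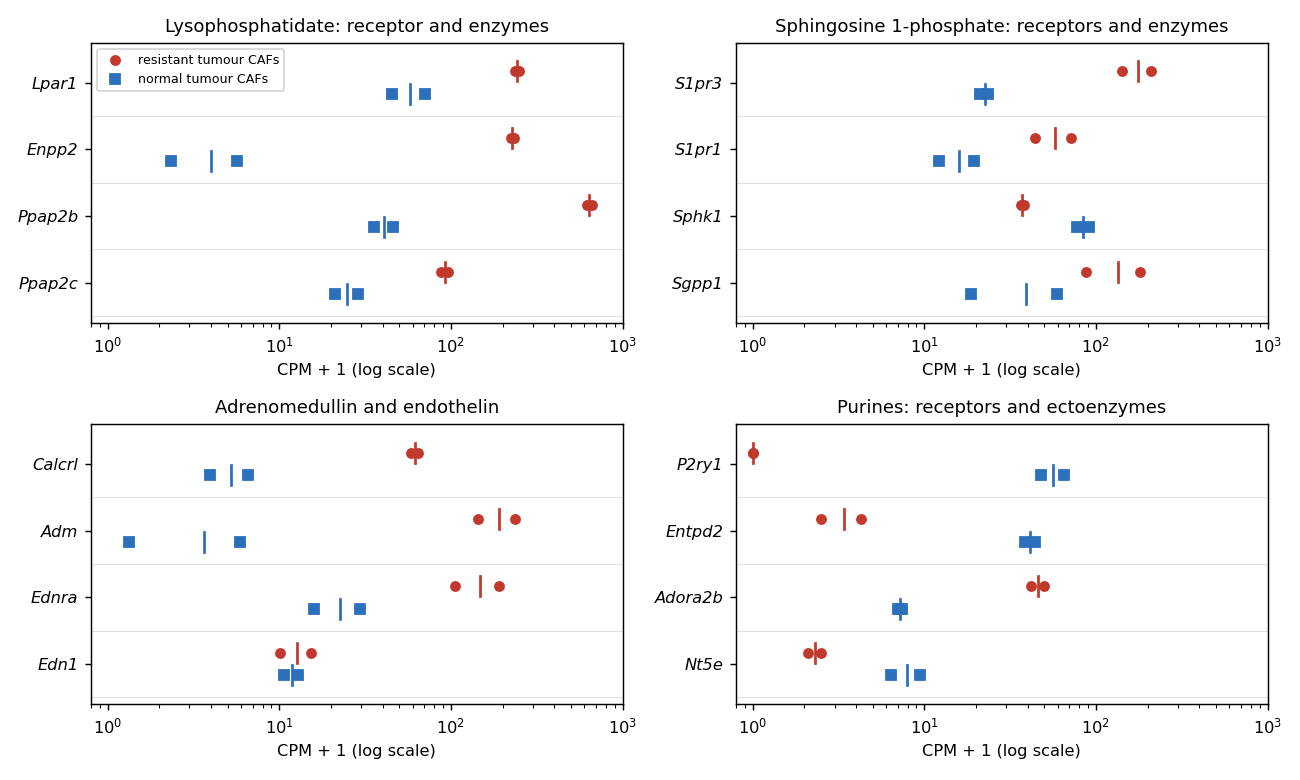
CPM + 1 on a log axis for receptors and genes that make, break or encode their ligands, with resistant tumour CAFs (circles) above normal tumour CAFs (squares) and a bar at each group mean. Enpp2 and Adm lie above normal tumour CAFs together with Lpar1 and Calcrl, Entpd2 lies below them together with P2ry1, and the Edn1 points overlap. Sphk1 and Nt5e lie below normal tumour CAFs, whereas the receptor genes S1pr3, S1pr1 and Adora2b lie above. Ppap2b, for a phosphatase that breaks lysophosphatidate down, lies above together with Lpar1.

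Downstream of the receptors, 22 G protein subunit genes were tested: 3 rose, 5 fell and 14 did not pass. Over all genes tested, 15.5% were higher and 13.9% lower. Gnai1, an inhibitory alpha subunit, had no read in resistant libraries against 31 and 78 reads in normal ones and was at least 19.5-fold lower (adjusted p = 4.24e-04). Its close relatives Gnai2 and Gnai3 did not pass, at -0.19 ± 0.33 and 0.46 ± 0.25 on the log2 scale. Gnaq and Gna11, the alpha subunits that release calcium, fell by 1.20 ± 0.32 and 1.10 ± 0.34 on the log2 scale, and so did Gnb2 (-1.23 ± 0.35) and Gnal (-1.57 ± 0.54). Gng12 rose by 1.34 ± 0.25, Gnb4 by 1.16 ± 0.30 and Gng8, a rarer subunit with 22 and 41 reads in resistant against 4 and 9 reads in normal tumour CAFs, by 3.16 ± 0.59. Gnb4 did not pass without either single normal library, nor Gng12 without normal replicate 2 (adjusted p = 0.0522). Of the genes that fell, only Gnai1 passed with any single library left out. Without normal replicate 1 Gnaq, Gna11, Gnb2 and Gnal all missed the threshold (adjusted p = 0.0624, 0.0824, 0.118 and 0.313), and Gnal missed it in each of the 4 such fits. Gnaq and Gna11 missed it without normal replicate 2 as well (adjusted p = 0.429 and 0.553), and Gna11 without resistant replicate 1 (adjusted p = 0.0524). Gnb2 was at -1.92 without resistant replicate 1.

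RGS genes moved in both directions: of 11 tested, 4 rose and 3 fell. Rgs4, an inhibitor of Gi and Gq signalling, had 157 and 197 CPM in resistant against 3.46 and 2.01 CPM in normal tumour CAFs (log2 fold change 6.04 ± 0.44, adjusted p = 3.82e-06). Rgs11 rose by 5.44 ± 0.65, Rgs17, which acts on Gz and Gi, by 1.80 ± 0.38 and Rgs5 by 3.21 ± 0.74, the last on 12 and 9 reads against 1 and 3. Rgs16 stood at 99.0 and 126 CPM in resistant against 328 and 294 CPM in normal tumour CAFs (-1.46 ± 0.26), Rgs20 at 5.31 and 2.56 against 23.2 and 35.7 CPM (-2.90 ± 0.53) and Rgs10 at 4.93 and 12.8 against 47.4 and 47.3 CPM (-2.41 ± 0.49). Rgs20 was at -3.51 without resistant replicate 1 and Rgs10 at -3.26 without resistant replicate 2. Rgs17 missed the threshold without normal replicate 2, at a log2 fold change of 1.56. Rgs5 missed it without normal replicate 1 (2.82) and without normal replicate 2 (3.75), and was not tested without resistant replicate 1. Among 10 tested arrestin and receptor kinase genes, Arrdc3, an alpha-arrestin linked to adrenergic receptor turnover, rose by 2.23 ± 0.34 on the log2 scale and Arrb2, beta-arrestin 2, fell by 1.60 ± 0.49 on that scale (adjusted p = 0.0262). Arrb2 did not pass without resistant replicate 2 or normal replicate 2 (adjusted p = 0.0970 and 0.216), and was at -2.21 without resistant replicate 1.

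The calls of 17 members held in every fit, and those of the other 8 did not. P2ry1, Gpr56, Gpr123, Gpr141, Gpr39, Gpr180, Gprc5b, Gpr137b, Adra2b, Calcrl, Gpr35, S1pr3, Adora2b, Ednra, F2r, Gpr176 and Lpar1 passed in every fit in which they were tested, with adjusted p up to 0.0429 for Gpr176. Among them, single libraries moved the size of 5 by over 1.5 times. The log2 fold change of Adra2b was 9.03 without normal replicate 1, the only normal library with its reads, and 5.02 without normal replicate 2. Without resistant replicate 1, Gpr123 stood at -6.16, Gprc5b at -2.69, Gpr180 at -3.46 and Gpr141 at -4.05, and Gpr141 was at -6.24 without resistant replicate 2. Of the genes around the ligands, Enpp2 was at 7.30 and Adm at 8.95 without normal replicate 1, at 5.55 and 5.22 without normal replicate 2, and Ace ran from 5.63 to 10.01. Enpp1 was at 1.41 without resistant replicate 1 and at 3.06 without resistant replicate 2, and Entpd2 at -4.72 without resistant replicate 2. Without normal replicate 2, 20 members were called, all among the 25, and without resistant replicate 1, 22 were called, of which 21 were among the 25.

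**Figure D4:**
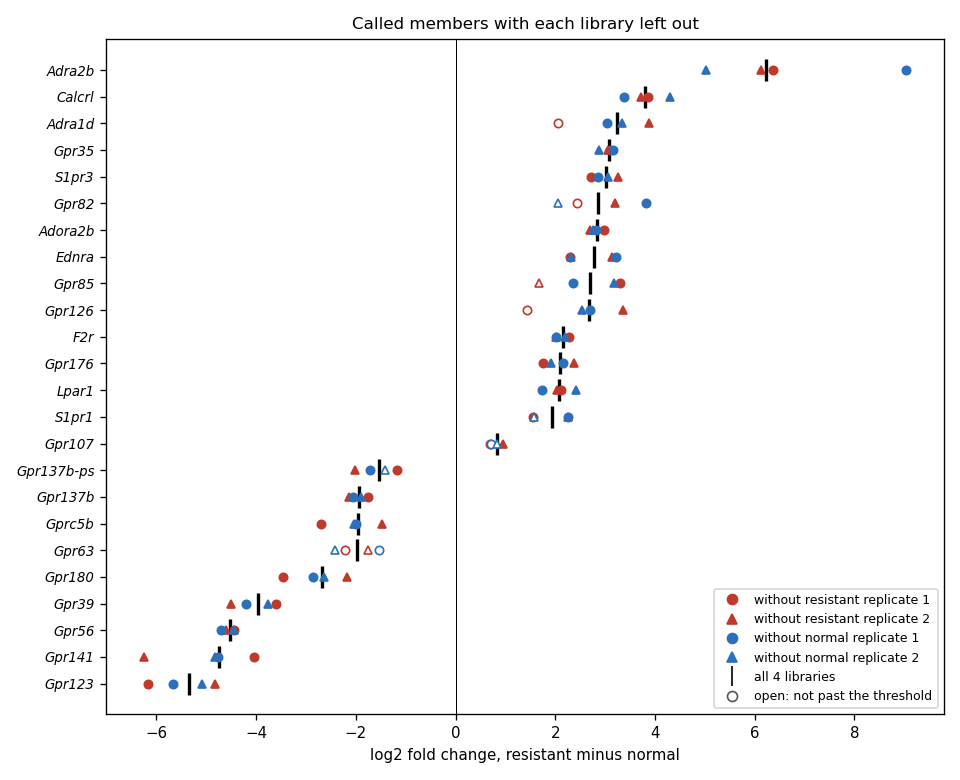
Log2 fold change of the called members apart from P2ry1, with all 4 libraries (black ticks) and with each library left out (red without a resistant, blue without a normal library); open symbols are not past the threshold. Adra1d, Gpr126, Gpr85, Gpr82, S1pr1, Gpr107, Gpr137b-ps and Gpr63 have open symbols, and no value crosses 0.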

How the data were processed

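Polyadenylated RNA of 4 libraries was counted per gene symbol, and the deposited counts are whole reads, 1 column per library. Per the submitters' processing notes the tools were HTSeq 0.7.2, TopHat2 2.1.1, bcl2fastq 2, Picard 1.62 and DESeq2, on mm9; settings and annotation: not given in the sources used here. Per the labels' protocols there was both a TruSeq and a SMART-seq2 preparation, with no word on which library had which. Neither kit is said to mark strand, and exons of 20 members, 10 of them called, overlap another gene in GENCODE M21, so such reads cannot be told apart. In the authors' deposited table, log2 fold changes and their p-values were used only to count the authors' calls.

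Groups came from the phenotype label and replicate numbers from the titles. The test was edgeR 4.0.16 (R 4.3.3) on counts: filterByExpr (minimum count 10), TMM, and the quasi-likelihood F test with the group as its only term, on all genes, with SE taken as the log2 fold change over the root of F. Means ± SD are over 2 libraries. Where a group had no read, 3 counts over the whole group stand in for it; at 1 to 3 reads the ratio of pooled CPM carries an exact 95% interval. Such intervals and floors reflect counting error alone. Over the tested genes, replicates differed by more than that. Their chi-square per degree of freedom was 18.2 for resistant and 11.9 for normal libraries, so these intervals are too narrow. Exonic lengths came from GENCODE M21 by symbol for all 55 members. Each is the union of all annotated exons of the gene, so orders and ranks per kilobase depend on the annotated isoforms. Members, lists and tests were chosen with earlier results of these data known. Named were all called members, tested members with a mean of at least 10 CPM, members without a read in a group, up to 4 genes per list and Gpr81; further genes were picked with their values in view, and some genes of the lists are not reported here. Alternatives were RLE factors, library totals, DESeq2 1.42.0, limma-voom (limma 3.58.1), no filter, a filter of at least 50 reads in 2 libraries, blocking on the replicate number, and leaving out each library. The procedure was tested on simulated counts.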

Additional observations from a re-analysis of the deposited data

How the results depend on the processing

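The counts of members called, 15 higher and 10 lower, stayed within 1.5 times in every alternative run, between 18 and 28 in all, and with each library left out between 20 and 27. With library totals the all-gene median of log2 fold changes was -0.14. Among values of single genes under the alternatives, 541 kept direction and side of the threshold, 23 no longer passed, 7 newly passed and 2 turned. Those were Gpr19 (0.11) and P2ry2 (-0.39) without resistant replicate 1, neither past the test; with each library left out Gpr19 ran from -0.78 to 0.11 and P2ry2 from -0.39 to 0.87. G protein genes called lower were 3 with at least 50 reads in 2 libraries; arrestin and receptor kinase genes called lower were 2 with library totals, with no low-count filter and with the replicate block. With each library left out, G protein genes called higher ran from 1 to 6 and lower from 1 to 4, RGS genes called higher from 2 to 4, arrestin and kinase genes called lower from 0 to 1, and ligand genes called lower from 1 to 4. The cause was not tested. The labels do not say that a replicate number marks a shared day or batch, and the deviations of same-numbered libraries correlated at 0.23 across genes. With the replicate block 28 members were called, the 25 and Gpr125, Gpr153 and Gpr157. In a fit without 1 library, the lone one in its group takes its spread from the other group. Members that did not pass are not shown to be equal.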
